A study of Mus musculus with 8 samples.

Results

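The 76 genes described here encode the proteins of the cytosolic ribosome of the mouse. They were chosen by name alone: protein-coding genes called Rpl or Rps with a number (and at most an a or x), together with Rplp0, Rplp1, Rplp2 and Rpsa. They are 76 of the 54139 genes in the count table, 46 for the large subunit and 30 for the small subunit. Expression was measured by bulk RNA sequencing of intestinal epithelial cells, in 8 libraries. The 4 WT libraries carry Villin-Cre alone, and the 4 cKO libraries carry a floxed Rictor allele with Villin-Cre, so all 8 carry the Cre driver. Villin-Cre is active in the epithelium of the intestine and not in the other cells of the gut wall. Age, sex, gut segment, isolation method and any treatment are not stated in the labels.

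A cytosolic ribosome joins ribosomal RNA to 1 copy of most ribosomal proteins, and the stalk proteins P1 and P2 are present in more copies. The messages for these proteins begin with a C followed by a run of pyrimidines, the 5′ terminal oligopyrimidine (TOP) motif, through which mTOR complex 1 and the RNA-binding protein Larp1 control their translation. Rictor defines the other mTOR complex, mTORC2, which phosphorylates Akt and related kinases and has been found in contact with ribosomes. In the gut, ribosomal protein messages are abundant in dividing crypt cells and less so in mature enterocytes. RNA sequencing measures the amount of these messages and not their translation. In a bulk sample, fewer cells of a type and less RNA per cell cannot be told apart.

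Total counts ran from 15110451 to 18708335 per library. Rictor, the targeted gene, was at 41.7, 42.4, 57.3 and 51.4 CPM (read counts scaled to the total of the library) in WT libraries 1 to 4. In cKO libraries 1 to 4 it was at 30.4, 39.6, 20.8 and 40.6 CPM. The groups did not overlap, but the message was still present in every cKO library, at 32.8 ± 9.24 CPM against 48.2 ± 7.51 (SD, n = 4 each). The log2 fold change was -0.55 ± 0.20 (SE) with an adjusted p of 0.921 in edgeR's quasi-likelihood test. Fold changes here are cKO over WT, and p-values are adjusted over all 14701 genes tested. Whether libraries of a group are separate mice is not labelled, so p-values reflect library-to-library spread, some of which may be technical. Markers of epithelium were abundant in all libraries, at a summed 11589 to 15578 CPM over 10 genes.

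The sequences of the TOP motif come first, because it is the feature that defines these messages. RefSeq windows around the annotated start were found for 56 of the 76 genes, on build GRCm38.p6. The motif searched on the sense strand was a C at the annotated start followed by at least 4 bases that are C or T. It stood at the annotated start in 13 of 66 windows of these genes (19.7%), against 2.51% of all 32851 windows. An annotated start a few bases away from the true one hides the motif, and a run of this kind anywhere in the 30 bases shown was in 60.6% of the windows of these genes and 35.8% of all. The 30 bases run from 10 before the start to 20 from it, 5′ to 3′, and capitals mark the pyrimidine run that begins at the annotated start.
Rps6 (chr4:86857348-86857377, minus strand): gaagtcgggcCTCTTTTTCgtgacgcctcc
Rplp2 (chr7:141447641-141447670, plus strand): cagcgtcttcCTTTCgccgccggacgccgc
Rpl38 (chr11:114668570-114668599, plus strand): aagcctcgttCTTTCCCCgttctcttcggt
Rps10 (chr17:27635225-27635254, minus strand): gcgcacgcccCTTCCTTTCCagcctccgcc
Rps15a (chr7:118116128-118116157, minus strand): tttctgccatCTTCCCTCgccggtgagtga
The runs shown differ in length, 5 bases in Rplp2 and 10 in Rps10. The median log2 fold change was 0.17 over the 13 genes whose window begins with the run and 0.15 over the other 43 with a window. The medians lay close to each other, and no gene of either set passed the test.

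Most of these messages were abundant, but a few changed place between libraries. FPKM, which is scaled by gene length, had a median of 254 over the 76 genes and ran from 4.51 to 1740. The median was 240 FPKM for large-subunit genes and 292 for small-subunit genes. Rpl29 changed most, at 0.705 FPKM in WT library 3 and 1.38 in cKO library 3 and at 153 to 307 in the other 6. Rplp1, a protein of the stalk that recruits elongation factors, was the highest, at 1638 ± 281 FPKM in WT and 1841 ± 260 in cKO. Rplp0, the base of the same stalk, followed at 1210 ± 92.5 and 1475 ± 348. Rplp1 was above Rplp0 in each of the 8 libraries, by little in cKO library 3 (2090 against 1980 FPKM) and cKO library 4 (1476 against 1397). Rps15, a small-subunit protein near the decoding site, was at 796 ± 88.5 FPKM in WT and 962 ± 168 in cKO. Rpl4, which lines the exit tunnel for the new protein, was at 831 ± 70.6 and 863 ± 72.5 FPKM.

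At the low end stood Rpl24, at 4.34 ± 0.81 FPKM in WT and 4.69 ± 0.99 in cKO. Rpl13a was at 17.4 ± 1.85 and 18.2 ± 2.44, and Rpl21 at 27.9 ± 7.08 and 28.0 ± 9.33 FPKM. Other genes elsewhere in the genome whose sequence is nearly that of Rpl24 held 73.2% of the reads of Rpl24 and its copies together, and for Rpl21 they held 68.1%. For Rpl13a the share was 9.78%. With the reads of its copies added, Rpl24 was still at only 13.3 to 19.5 CPM in the 8 libraries. Genes overlapping the gene itself and assembled loci without an Ensembl identifier were not counted as copies, so their reads are not in these sums. Per coding kilobase the summed level was 37.3 CPM for Rpl24, 69.4 for Rpl13a and 623 for Rpl21. The median of this level over the genes was 1230. The deposited lengths that scale FPKM also differ from coding lengths, with a median of 1775.5 against 462 bases. The order of other genes thus depends on the length used, but Rpl24, Rpl13a and Rpl21 ranked 76, 75 and 74 by either length.

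**Figure D1:**
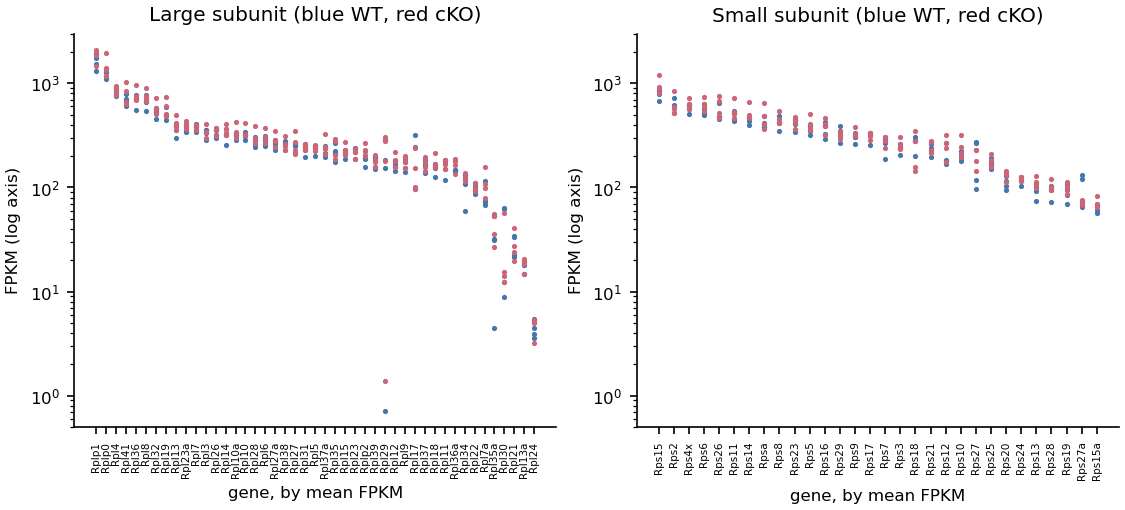
FPKM (log axis) of 75 ribosomal protein genes in 8 libraries, large subunit on the left and small subunit on the right, ordered by mean; blue points are WT and red points cKO libraries. Levels run from 4.51 for Rpl24 to 1740 for Rplp1 as means, and the libraries spread widely for Rpl29, Rpl35a, Rpl30 and Rpl17.

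No ribosomal protein gene passed the test between cKO and WT. The edgeR test called 0 of 76 at an adjusted p of 0.05, against a background of 0.0136% of all genes tested (2 of 14701), 0.0068% in each direction. The smallest p was 0.0647 (Rps27a), with an adjusted p of 0.921. At an unadjusted p under 0.05 it found 0 of 76, against 3.9% of all genes, and DESeq2 and limma voom also called 0. WT and cKO libraries overlapped for all 76 genes, while 3.21% of all genes had groups that did not overlap, 1.41% with cKO above WT and 1.8% with cKO below.

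The point estimates leaned one way by a small amount. The log2 fold change was above 0 for 70 of 76 genes (92.1%), against 50.5% of all genes tested. Its median was 0.15, with quartiles of 0.075 and 0.21, against 0.0022 over all genes. The median SE of a single gene was 0.14, about the size of the median itself. These genes move together in each library, so their count of 70 is not 70 separate observations.

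The lean was largest in 1 library of each genotype. WT library 3 had the lowest level of 63 of the 76 genes, and cKO library 3 had the highest level of 53. The median over the genes of the log2 CPM, centred on the mean of the 8 libraries, was 0.049, -0.053, -0.26 and 0.011 in WT libraries 1 to 4. In cKO libraries 1 to 4 it was -0.090, 0.064, 0.30 and 0.029. Apart from libraries 3 the genotypes lay in the same range, -0.053 to 0.049 for WT and -0.090 to 0.064 for cKO. WT library 3 held the lowest of these values and cKO library 3 the highest. Leaving them out thus lowers the median fold change by construction, and shows only how far the lean rests on them. Without WT library 3 and cKO library 3 the median log2 fold change was 0.013, and 42 genes were above 0 and 34 below. It was 0.074 without cKO library 3 alone, and 0.083 without WT library 3 alone. With quality weights for the libraries in limma voom it was 0.072, and 57 genes were above 0.

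WT library 3, cKO library 3 or both also stood apart in some other measures. The voom quality weights, which fall for libraries that deviate across all genes, were 0.452 for WT library 3 and 0.192 for cKO library 3, the lowest of the 8. Absorptive enterocyte markers summed to 25819 CPM in WT library 3 and to between 9982 and 17577 CPM in the other 7, over 12 genes of which none was at 0. Crypt markers (10 genes) summed to 4285 CPM in WT library 3, against 4804 to 5131 in the other WT libraries, and to 3837 CPM in cKO library 3, against 3557 to 4746 in the other cKO libraries. The crypt sum was thus lower in cKO library 3 than in WT library 3. The centred log2 CPM score of the same list had the other order, at -0.0037 in cKO library 3 and -0.24 in WT library 3. The lowest crypt score of the 8 libraries was in cKO library 1, at -0.26. T cell and intraepithelial lymphocyte markers (21 genes, none at 0) summed to 860 CPM in cKO library 3, and to 214 to 708 in WT and 281 to 626 in the other cKO libraries. Of the 20 tested, 19 had a higher point estimate in cKO and 0 were called. B and plasma cell markers (10 genes) summed to 737 CPM in cKO library 3, to 430 in WT library 3 and to at most 200 in the others. The part of these cell types in the ribosomal protein levels was not tested. A trend on transcript length and GC content shifted the median ribosomal protein gene by 0.15 in cKO library 3 and by -0.074 to 0.068 in the others, and with that trend removed the median log2 fold change was 0.10.

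**Figure D2:**
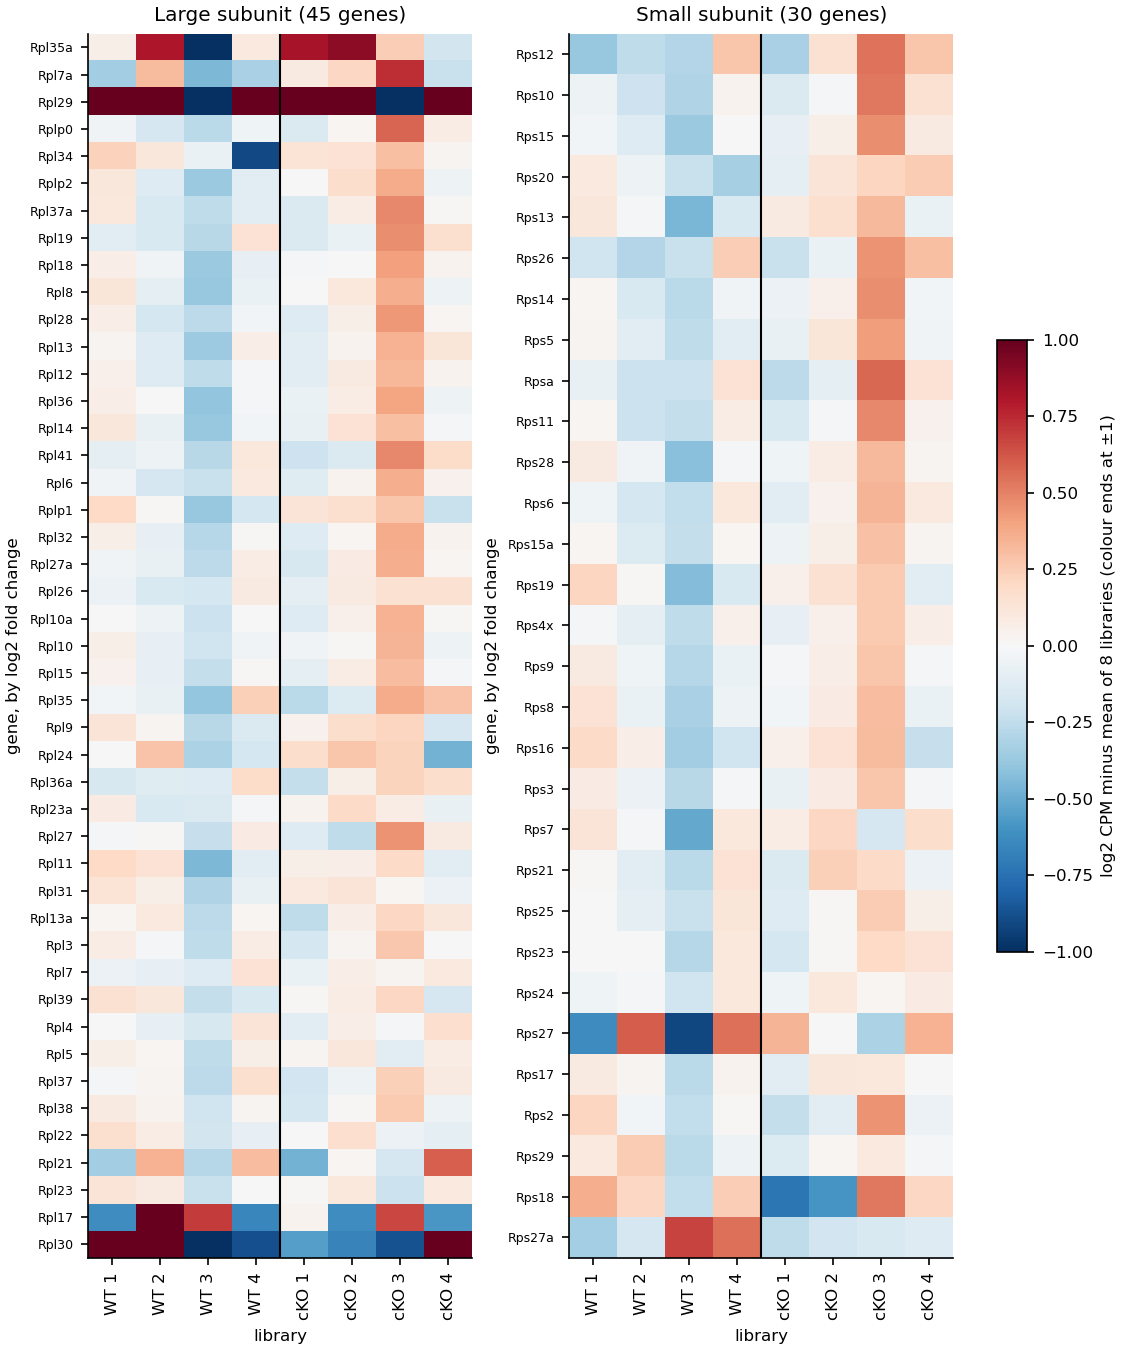
Log2 CPM of 75 ribosomal protein genes (45 large-subunit, 30 small-subunit), each minus its mean over 8 libraries, with genes from the highest to the lowest log2 fold change and colours ending at ±1. The column of WT library 3 is the lowest for 63 of all 76 genes and that of cKO library 3 the highest for 53, and single genes such as Rpl29, Rpl30, Rpl17 and Rps27 break this pattern.

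The 2 subunits moved together. The large subunit took 1.97% to 2.61% of counts in WT and 2.32% to 2.99% in cKO, and the small subunit 1.38% to 1.87% and 1.57% to 2.16%. In each library the large-subunit reads were between 1.39 and 1.48 times the small-subunit reads. The centred medians of the 2 subunits differed by -0.039 to 0.033 within a library, while each ranged from about -0.26 or -0.27 in WT library 3 to 0.30 in cKO library 3. The median log2 fold change was 0.14 for large-subunit genes (43 of 46 above 0) and 0.15 for small-subunit genes (27 of 30 above 0). Without libraries 3 these medians were 0.015 and 0.0039.

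**Figure D3:**
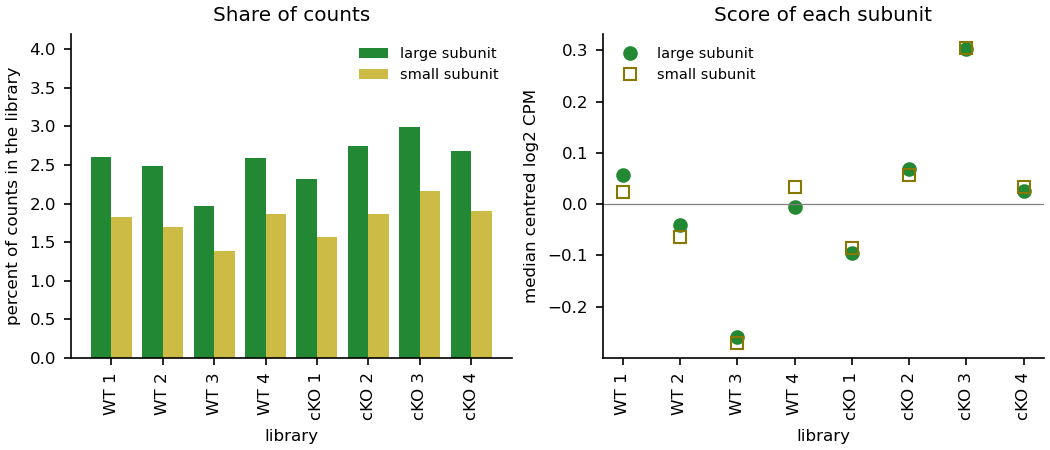
Left, share of all counts taken by large-subunit (green bars) and small-subunit (yellow bars) genes in each of 8 libraries; right, the median centred log2 CPM of each subunit in the same libraries. The 2 subunits lie within 0.039 of each other in each library, lowest in WT library 3 and highest in cKO library 3.

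Among the stalk proteins, which bind the translation factors that hydrolyse GTP, the 4 WT libraries had Rplp0 at 2158, 1969, 1836 and 2152 CPM. The cKO libraries had it at 2002, 2247, 3313 and 2333 CPM. Here 3 cKO libraries lay above all WT libraries, library 3 by far, and cKO library 1 lay within the WT range. This gave a log2 fold change of 0.29 ± 0.16 (adjusted p in edgeR, 0.921), and 0.068 without libraries 3. Rplp2 was at 465, 394, 333 and 399 CPM in WT and at 429, 485, 557 and 416 CPM in cKO. Its groups overlapped, with a log2 fold change of 0.25 ± 0.14, and WT library 3 was the lowest and cKO library 3 the highest. Rplp1 had 0.17 ± 0.15, with the same 2 libraries at the ends. Without libraries 3 the estimates were 0.080 for Rplp2 and 0.014 for Rplp1.

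Rpl5 and Rpl11 form with 5S ribosomal RNA the particle that also binds Mdm2 when ribosome assembly is disturbed. Rpl5 was at 985, 957, 794 and 985 CPM in WT and at 961, 1023, 880 and 995.4 CPM in cKO. Rpl11 was at 504, 485, 321 and 406 CPM in WT and at 456, 460, 501 and 406 CPM in cKO. For both, WT library 3 was the lowest and the groups overlapped, with log2 fold changes of 0.053 ± 0.12 and 0.087 ± 0.15, and of 0.026 and -0.078 without libraries 3. Rpl10, which joins in the last step of large-subunit maturation, was at 709, 643, 593 and 665 CPM in WT. In cKO it was at 667, 686, 861 and 660 CPM, so that 3 cKO libraries lay inside the WT range and library 3 above it. The estimate was 0.14 ± 0.12 on the log2 scale, and -0.0034 without libraries 3.

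Rpl22, which is dispensable for translation in general and is needed by developing T cells, was nearly level, with a log2 fold change of 0.012 ± 0.11. Rpl38, known from mice with skeletal patterning defects, had 0.028 ± 0.12. Both turned below 0 without libraries 3, to -0.021 and -0.12. Rpl7a had the smallest p among large-subunit genes, at 132, 209, 123 and 134 CPM in WT and 178, 194, 281 and 144 CPM in cKO. WT library 2 was inside the cKO range, and the log2 fold change was 0.42 ± 0.22 (adjusted p in edgeR, 0.921). It was 0.20 without cKO library 3 and 0.12 without both libraries 3. With the reads of its copies added it was 0.27 ± 0.18.

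In the small subunit, Rps6 is the substrate of the S6 kinases downstream of mTOR complex 1. It was at 918, 833, 795 and 1014 CPM in WT and at 874, 970, 1195 and 1008 CPM in cKO. The groups overlapped, and the log2 fold change was 0.18 ± 0.13, and 0.044 without libraries 3. Rps3, at the entry of the mRNA channel, had 0.14 ± 0.13, and Rpsa, also described as a laminin receptor, had 0.21 ± 0.18. Both turned just below 0 without libraries 3, to -0.0021 and -0.020. Rps20 had the smallest p among the small-subunit genes with a higher estimate. Its 4 WT libraries were at 530, 476, 422 and 391 CPM and its cKO libraries at 465, 541, 573 and 588 CPM. Here 3 cKO libraries lay above all WT libraries and cKO library 1 within them. Its log2 fold change of 0.25 ± 0.13 (adjusted p in edgeR, 0.921) was 0.19 without libraries 3.

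Rps15 was at 544, 505, 428 and 551 CPM in WT and at 522, 575, 765 and 589 CPM in cKO. Rps10, which is ubiquitinated when ribosomes stall, was at 414, 372, 349 and 439 CPM in WT and at 389, 426, 619 and 476 CPM in cKO. In both genes cKO library 1 was inside the WT range and cKO library 3 far above it. Their log2 fold changes were 0.27 ± 0.14 and 0.28 ± 0.15, and 0.075 and 0.077 without libraries 3. For Rps13, again highest in cKO library 3, they were 0.25 ± 0.14 and 0.078.

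Only 6 of the 76 genes had a lower point estimate in cKO. Rps27a, whose product is made as a fusion of ubiquitin and the ribosomal protein, had the smallest p of the 76. It was at 130, 146, 261 and 240 CPM in WT and at 137, 144, 147 and 150 CPM in cKO. WT libraries 3 and 4 were high, while WT libraries 1 and 2 were at or near the cKO level. WT library 3 had the highest level of this gene and the lowest of 63 others. Its log2 fold change was -0.43 ± 0.21 (adjusted p in edgeR, 0.921), and -0.26 without libraries 3. With its 13 copies added, WT libraries 3 and 4 were still high, at 278 and 261 CPM against 157 to 167 in the other 6.

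The other 5 with a lower estimate were Rpl30 (-0.58 ± 0.84), Rpl17 (-0.35 ± 0.48), Rps18 (-0.21 ± 0.27), Rps29 (-0.029 ± 0.13) and Rpl23 (-0.0017 ± 0.12). All 5 had SEs larger than their fold changes. Libraries of 1 genotype differed severalfold for Rpl30 and Rpl17, and less for Rps18, at 507 to 776 CPM in WT and 364 to 867 in cKO. For Rpl30 the WT libraries were at 194, 191, 27.1 and 37.4 CPM and the cKO libraries at 46.9, 43.4, 37.6 and 173 CPM. Its level thus took 2 ranges, 27.1 to 46.9 and 173 to 194 CPM, and both ranges occurred in both genotypes.

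**Figure D4:**
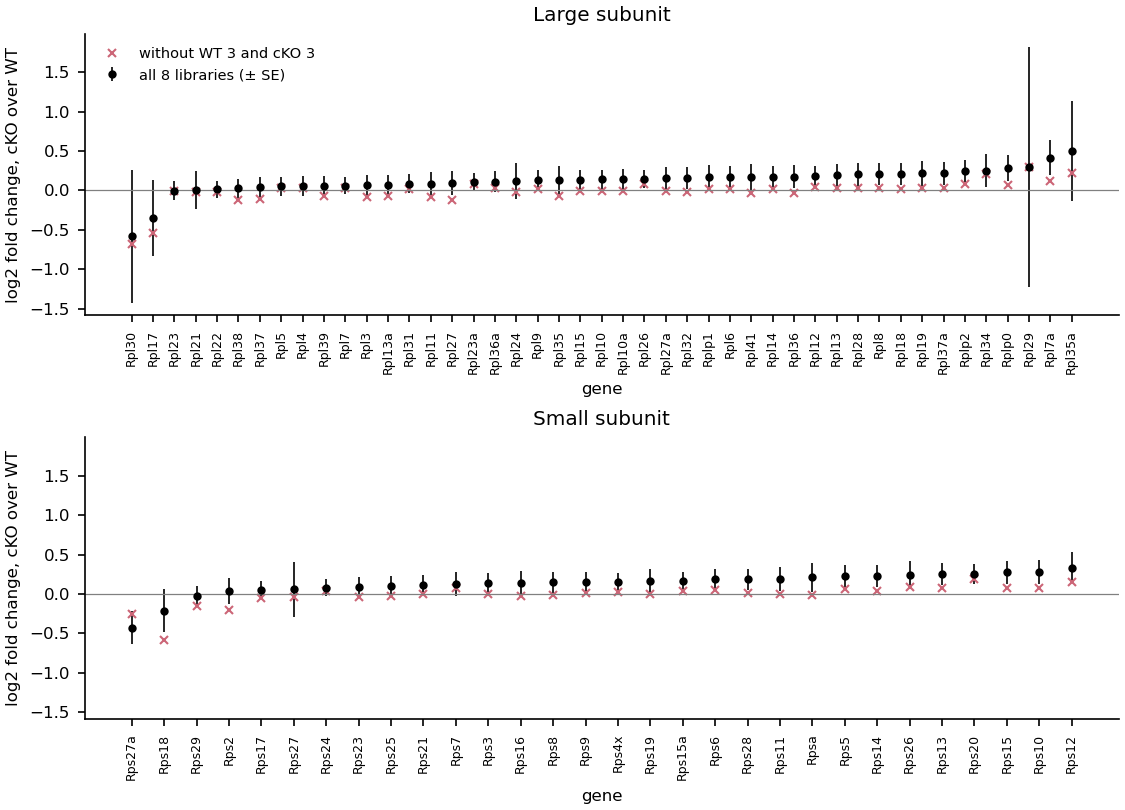
Log2 fold change of 75 genes, cKO over WT, from edgeR with all 8 libraries (black points, bars are ± SE) and without WT library 3 and cKO library 3 (red crosses), large subunit above and small subunit below. Over all 76 genes, 70 estimates are above 0 with all libraries (black) and 42 without libraries 3 (red).

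For several genes these jumps were mirrored by reads assigned to near-identical genes. Ribosomal protein genes have many processed copies in the mouse genome. Alignment of the coding sequences to annotated transcripts found 984 such genes for 73 of the 76 (at least 90% identity over at least 50% of the coding sequence), of which 924 are annotated as processed pseudogenes. At least 1 read was assigned to 571 of them. The median gene had 8.25% of the reads of its family, the gene and its copies together, in copies. For 5 genes the copies held over 50%. The labels do not say how reads that match several places were counted.

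The sequences show how little separates a gene from its copy. Each pair shows 60 coding bases of the gene and of the copy, 5′ to 3′ on the coding strand and from the GENCODE M21 transcripts, with the base that differs in capitals, and positions are counted from the first coding base. Rpl30 (chromosome 15, 34440505 to 34443640, minus strand) and Gm12191 (chromosome 11, 49678710 to 49679057) differ at 1 of 345 coding bases, G96A.
Rpl30: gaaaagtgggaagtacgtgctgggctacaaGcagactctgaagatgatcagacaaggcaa
Gm12191: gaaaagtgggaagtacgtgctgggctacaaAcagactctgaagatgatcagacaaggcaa
Rps18 (chromosome 17, 33951999 to 33956001, minus strand) and Gm11361 (chromosome 13, 28257528 to 28258134) differ at 3 of 456 bases, of which A171C is in the stretch shown.
Rps18: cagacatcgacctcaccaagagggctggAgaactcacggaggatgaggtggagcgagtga
Gm11361: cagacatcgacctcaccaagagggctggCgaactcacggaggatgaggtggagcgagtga
Rpl29 (chromosome 9, 106429454 to 106431568, plus strand) and Gm13841 (chromosome 5, 115801677 to 115802159) differ at 3 of 480 bases, of which C300T is shown.
Rpl29: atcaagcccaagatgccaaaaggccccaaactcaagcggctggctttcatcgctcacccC
Gm13841: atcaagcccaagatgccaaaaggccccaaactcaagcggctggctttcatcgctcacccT
Rps27 (chromosome 3, 90212522 to 90213651, minus strand) and Rps27rt (chromosome 9, 114982366 to 114982739), itself annotated as protein coding, have the same 252 coding bases, so no capitals are shown.
Rps27: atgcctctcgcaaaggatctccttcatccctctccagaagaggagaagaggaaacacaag
Rps27rt: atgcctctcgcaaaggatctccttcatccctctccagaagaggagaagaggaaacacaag

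Rpl30 had 3663, 3458, 439 and 612 reads in WT libraries 1 to 4 and 791, 734, 670 and 2695 in cKO libraries 1 to 4. Gm12191 had 2700, 2184, 2948 and 3266 reads in WT and 4009, 4323, 3426 and 1747 in cKO. The 3 libraries with most reads on the gene were the 3 with fewest on the copy. With the reads of all its copies added, Rpl30 was at 212 to 345 CPM in the 8 libraries, and its within-group SD of the log2 value fell from 1.29 to 0.26. On the log2 scale the fold change became -0.0018 ± 0.16.

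Rps27, a zinc finger protein of the small subunit, had 2326, 5246, 1639 and 4566 reads in WT and 4073, 3229, 2724 and 3766 in cKO. Rps27rt had 5338, 1312, 3904 and 2220 reads in WT and 2475, 4080, 6856 and 2565 in cKO. The ratio of the 2 genes turned over between libraries of 1 genotype although their coding bases are the same. The summed level was 342 to 415 CPM in WT and 388 to 540 CPM in cKO, with an SD of 0.18 in place of 0.60. Its log2 fold change moved from 0.059 ± 0.35 to 0.21 ± 0.13 and did not pass the test (adjusted p in edgeR, 0.920).

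Rpl17 had 1451, 4509, 3098 and 1232 reads in WT and 2042, 1298, 3351 and 1228 in cKO, while its processed pseudogene Rpl17-ps10 had 6989, 3149, 3240 and 5956 and then 4943, 7012, 5209 and 5341. The copies of Rpl17 together held 78.9% of its family's reads, the largest share of the 76 genes. Summed, the level was even across libraries, at 543 to 643 CPM in WT and 606 to 702 CPM in cKO. Its SD fell from 0.76 to 0.11, and the log2 fold change turned from -0.35 ± 0.48 to 0.13 ± 0.11.

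Rpl34 stood apart in 1 library. It had 6652, 5877, 4646 and 2618 reads in WT and 5566, 5617, 6588 and 4772 in cKO. Rpl34-ps1, a processed pseudogene, had 2409 reads in WT library 4 and 225 to 590 in the other 7. The sum was at 313 to 390 CPM in WT and 341 to 407 CPM in cKO, and WT library 4 no longer stood apart at 318 CPM. With copies its log2 fold change went from 0.25 ± 0.21 to 0.12 ± 0.11.

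For Rps18, a protein of the head of the small subunit, adding the copy evened out part of the difference only. Rps18 had 14631, 12598, 8212 and 11681 reads in WT and 6142, 6756, 15439 and 10840 in cKO. Gm11361 had 366 to 592 reads in WT, and 1652, 1765, 689 and 431 in cKO. The 2 cKO libraries that were low for the gene were high for the copy, but by fewer reads than the gene lacked. Summed, cKO libraries 1 and 2 remained the lowest, at 474 and 516 CPM, and the SD was 0.36 against 0.47.

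Rpl29 gave the widest spread of all 76 genes. It had 3284, 5932, 13 and 3386 reads in WT and 5355, 5949, 28 and 3159 in cKO, so WT library 3 and cKO library 3 were near 0. Gm13841 was highest in those same libraries, at 1143 and 1566 reads against 395 to 926 in the others. Gm8210 was also highest there, at 112 and 164 reads against 16 to 108. The copies Gm10709 and Gm5561 instead fell with the gene. Each had 2 reads in WT library 3 and 1 in cKO library 3, against 52 to 105 and 12 to 25 in the others. Summed over all 62 copies the level was still lowest in WT library 3 and cKO library 3, at 81.8 and 103 CPM against 235 to 394. The SD fell from 3.93 to 0.91. Its log2 fold change was 0.30 ± 1.53, with an SE far larger than the value. Rpl35a was also low in WT library 3, with 259 reads against 1471 to 3398 in the others, and its sum stayed low there, at 50.5 CPM against 116 to 215.

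**Figure D5:**
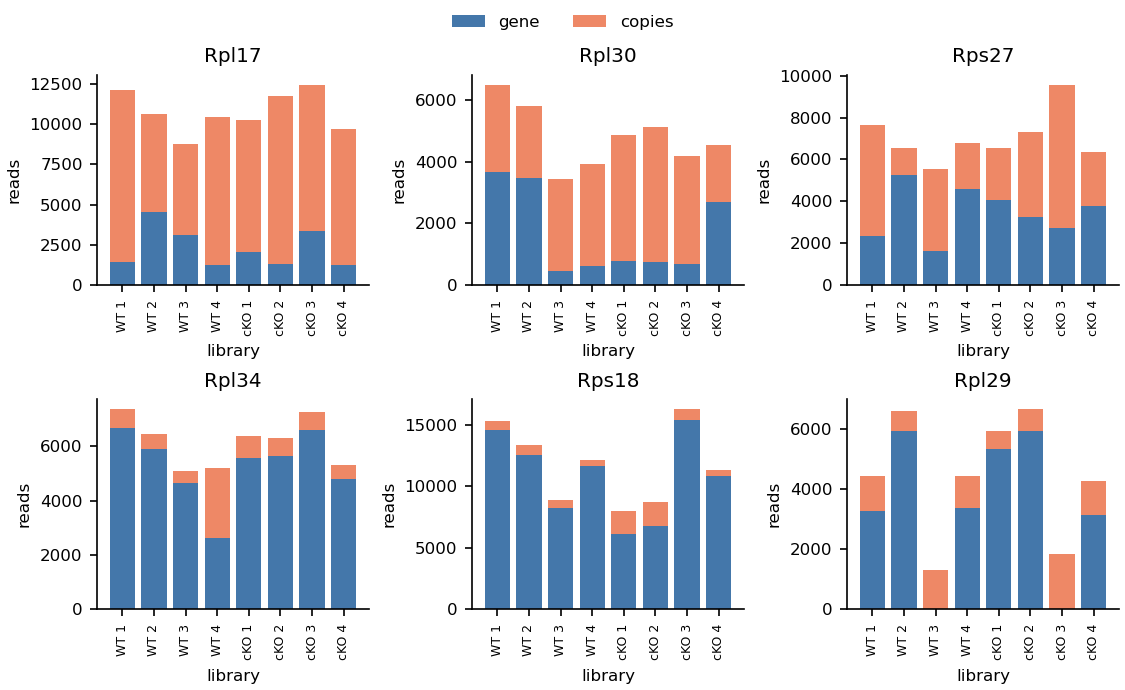
Reads assigned to 6 ribosomal protein genes (blue) and to all their near-identical copies (orange, stacked) in each of 8 libraries. The split between gene and copies changes between libraries of the same genotype, while the total is more even for Rpl17, Rps27 and Rpl34 than for Rps18 and Rpl29.

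Over all 76 genes, the median within-group SD of the log2 value was 0.19 for the gene alone and 0.18 for the summed reads, against 0.25 for all genes tested. An SD over 0.5 was found for 5 genes alone and for 2 after summing, Rpl29 and Rpl35a. With copies summed, 73 of 76 genes had a higher point estimate in cKO, with a median of 0.16, and 0 were called. An unadjusted p under 0.05 was reached by 1 gene, Rps12, named here after its values were seen, at 0.33 ± 0.15 (adjusted p in edgeR, 0.920). The 28 genes with under 5% of their reads in copies all had a higher point estimate, with a median of 0.15. Without libraries 3 their median was 0.0069 and 15 were above 0. Genes with few copy reads thus leaned as the whole set did, with and without libraries 3.

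Genes with related roles were counted the same way, and 0 of them were called in any list. The 5 ribosomal protein genes with other names all had higher point estimates, with a median of 0.24. Without libraries 3 the median was 0.083 and 4 of 5 were higher. Fau, made as a fusion of a ubiquitin-like protein and the ribosomal protein eS30, was at 460, 425, 451 and 463 CPM in WT and at 493, 479, 654 and 501 CPM in cKO. Its 4 cKO libraries lay above its 4 WT libraries, as did those of 1.41% of all genes, with a log2 fold change of 0.24 ± 0.12 (adjusted p in edgeR, 0.921) and of 0.13 without libraries 3. Rpl36al, at 1.07 ± 0.47 CPM in WT and 1.55 ± 0.14 in cKO, had 0.53 ± 0.33, and 0.37 without libraries 3. Of 5 tested paralogs 4 had a higher estimate, led by Rps27rt and Rpl7l1 (0.36 ± 0.47 and 0.096 ± 0.097), and 2 of 5 without libraries 3, where those 2 genes were at 0.17 and 0.030.

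Translation factors and some other genes, listed as also having TOP messages, had higher estimates in 13 of 21 genes, with a median of 0.082. Without libraries 3 the median turned to -0.019, with 10 of 21 higher. Eif2s3x, a subunit of the factor that brings the initiator tRNA, had -0.21 ± 0.12, and Eef1b2, an exchange factor for elongation, 0.19 ± 0.11 (-0.16 and 0.094 without libraries 3). Their median lay below that of the ribosomal protein genes, a difference that was not tested. Among 13 regulators of TOP message translation, 4 had higher estimates and the median was -0.093, and again 4 without libraries 3, with a median of -0.027. Larp4, a poly(A)-binding protein partner, was at -0.26 ± 0.16, and Eif4ebp1, an inhibitor of cap binding, at 0.26 ± 0.16 (-0.11 and 0.069 without libraries 3).

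RNA polymerase I makes the ribosomal RNA precursor. In a list of its subunits and factors, with Myc counted among them, 9 of 13 genes had higher estimates. The median was 0.075, and 0.058 without libraries 3. Myc, a transcription factor that drives ribosome production, was at 86.6, 80.9, 73.3 and 84.1 CPM in WT and at 96.3, 105, 116 and 96.5 CPM in cKO. All 4 cKO libraries lay above all 4 WT libraries, as did those of 1.41% of all genes. Myc had a log2 fold change of 0.35 ± 0.10 (adjusted p in edgeR, 0.921) and 0.24 without libraries 3. Polr1e, a polymerase subunit, was at 10.2, 11.1, 10.3 and 10.6 CPM in WT and at 12.9, 15.3, 14.0 and 12.2 CPM in cKO, with 0.37 ± 0.13 (adjusted p in edgeR, 0.921). Its cKO libraries also lay above all its WT libraries, and its log2 fold change was 0.34 without libraries 3. Neither gene passed the adjusted threshold.

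Of 52 factors that assemble the subunits, in the nucleolus and later in the cytoplasm, 35 had higher estimates, with a median of 0.095 and of 0.013 without libraries 3. Grwd1, a histone and ribosome assembly chaperone, had 0.35 ± 0.15, and Noc2l 0.30 ± 0.14 (0.14 and 0.11 without libraries 3). For the proteins of the mitochondrial ribosome, 51 of 76 tested were higher, with a median of 0.044. Without libraries 3 it turned to -0.061, with 23 higher. Mrps6 was at 14.7 ± 1.04 CPM in WT and 18.7 ± 1.57 in cKO and its groups did not overlap (log2 fold change 0.34 ± 0.12, adjusted p in edgeR, 0.921). Without libraries 3 the fold change of Mrps6 was 0.32. Mrps34 had 0.36 ± 0.14, with groups that overlapped, and 0.19 without libraries 3. Of 84 tested ribosomal protein pseudogenes 64 were higher, with a median of 0.14, close to that of the ribosomal protein genes. Those among the near-identical copies above may share reads with their gene, so this is not a separate observation. Without libraries 3 the median was 0.015 and 46 were higher. Rps12-ps3, annotated as protein coding despite its name and equal in sequence to Rps12 over 86.5% of the coding bases, was at 238 ± 13.8 CPM in WT and 297 ± 23.0 in cKO (log2 fold change 0.32 ± 0.10, adjusted p in edgeR, 0.921). Its groups did not overlap, and its fold change was 0.27 without libraries 3. For Mrps6 and Rps12-ps3 all cKO libraries lay above all WT libraries, as for 1.41% of all genes. Rps25-ps1 had 0.57 ± 0.22 at 3.35 ± 0.50 CPM in WT, and 0.66 without libraries 3.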

How the data were processed

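The authors deposited whole-number read counts per gene and FPKM values (scaled by length and library) for 8 libraries. Per the series' design text, reads were processed with Hisat2 and Stringtie; no versions, genome build, counting program or strand setting were stated there. Coordinates follow GRCm38, since 97.1% of 53706 identifiers have identical coordinates in GENCODE M21. Counts were fitted for all genes with edgeR 4.0.16 in R 4.3.3 (TMM factors, default filter, quasi-likelihood test, robust fit, Benjamini-Hochberg adjustment, threshold 0.05); all 76 genes passed the filter. CPM use TMM-scaled totals, and centred log2 CPM a prior count of 2. Copies were found with blastn 2.17.0 and assigned to the nearest gene. Genes overlapping the locus of that gene, and assembled loci without an Ensembl identifier, were left out of all summed levels. Alternatives used limma 3.58.1 and DESeq2 1.42.0; the edgeR step was tested on simulated data. All pairs of libraries differed beyond sampling noise (chi-square per degree of freedom of at least 10.7).

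The genes and lists were chosen with earlier results of these data known. Values in every library were given for genes among the 4 smallest p in each direction or the 3 highest or lowest FPKM within a subunit and for 12 genes of known role, and of each related list the 2 genes with the smallest p are named. The genes described for their copies were added after their values were seen. Some genes that this rule names are not reported here.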

Additional observations from a re-analysis of the deposited data

Results flagged for a closer look

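Within the genotypes, 68 groups of 4 libraries were examined for a single library far from the other 3, and 4 were found; chance alone gives about 1 in 20. The measure is the gap to the nearest library divided by the whole range of the group. Rpl10 in cKO library 3 was at 861 CPM, and the other 3 cKO libraries at 660 to 686 (gap of 0.867 of the range). Rpl5 in WT library 3 was at 794 CPM against 957 to 985 (0.852). Rpl30 in cKO library 4 was at 173 CPM against 37.6 to 46.9 (0.932), in the library with the fewest reads on its copy Gm12191. Rpl7a in WT library 2 was at 209 CPM against 123 to 134 (0.873).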

How the results depend on the processing

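No ribosomal protein gene was called under any of 22 other settings, where the lowest adjusted p of any of them was 0.605. The median log2 fold change stayed above 0, between 0.013 and 0.20. Genes with a higher point estimate numbered 42 in place of 70 without WT library 3 and cKO library 3 together. Those libraries held the lowest and the highest levels of these genes, so a fall was fixed in advance. Leaving out 1 library at a time gave a large minus small subunit difference of -0.032 to 0.012.

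Signs turned for 15 of 31 named genes, in 49 of 651 values. Without both libraries 3 the log2 fold changes were -0.0034 (Rpl10), -0.078 (Rpl11), -0.066 (Rpl13a), -0.022 (Rpl21), -0.021 (Rpl22), -0.018 (Rpl24), -0.12 (Rpl38), -0.21 (Rps2), -0.0021 (Rps3) and -0.020 (Rpsa). With voom quality weights they were -0.085 (Rpl11), -0.040 (Rpl22), 0.011 (Rpl23), -0.14 (Rpl24), -0.068 (Rpl38), -0.032 (Rplp1) and -0.13 (Rps2). With length and GC offsets they were -0.010 (Rpl13a), 0.047 (Rpl23), -0.15 (Rpl38) and -0.077 (Rps2). With copies summed, an alternative chosen after seeing the data, they were 0.13 (Rpl17), 0.013 (Rpl23) and 0.017 (Rps29), and with upper-quartile factors 0.0085 (Rpl23). For Rpl21 limma gave -0.015 on log2(FPKM + 0.1) with and without a minimum mean FPKM of 0.5, and -0.014 on log2(FPKM + 1). Leaving out 1 library at a time gave ranges of -0.029 to 0.18 (Rpl11), -0.0053 to 0.15 (Rpl13a), -0.68 to 0.021 (Rpl17), -0.23 to 0.14 (Rpl21), -0.043 to 0.075 (Rpl22), -0.070 to 0.066 (Rpl23), -0.062 to 0.089 (Rpl38), -0.015 to 0.095 (Rpl5), -0.13 to 0.13 (Rps2) and -0.11 to 0.056 (Rps29). The cause of these turns was not tested.

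The replicate numbers were not taken to pair the libraries, because the labels state no pairing, and the correlations do not decide it. These correlations were taken over genes on log2 CPM minus each gene's mean within its genotype, not on the levels themselves. On this measure the WT and cKO libraries numbered 1 correlated at -0.108. The other same-numbered libraries correlated at 0.108 to 0.152, and 4 of 8 libraries correlated best with their own number, and whether they shared a batch is not labelled. With the replicate number as a block, 0 ribosomal protein genes were called, the median was 0.15 and Rpl21 was at -0.014. Over all genes, 2 were called by edgeR, 0 with the block, 10 with no filter, 4 without libraries 3, 8 by voom with weights and 37 by DESeq2. How reads were assigned between near-identical genes cannot be checked from the counts.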
